A study of Mus musculus with 4 samples.

Results

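The 8 genes described here encode enzymes that modify drugs, steroids and lipids. They are the cytochrome P450 genes Cyp2e1, Cyp4b1, Cyp2d26, Cyp2j5, Cyp7b1 and Cyp2a4 and the UDP-glucuronosyltransferase genes Ugt2b37 and Ugt2b38. They were chosen by gene symbol, and all 8 were found among the 31053 genes listed in each of 4 count matrices. The matrices came from droplet single-cell RNA sequencing of mouse kidneys. All mice were C57BL/6 males with ischemia-reperfusion (I/R), an injury made by stopping and then restoring renal blood flow. Mice without the probiotic Lactobacillus casei Zhang (Lac.z) were killed 5, 14 or 28 days after I/R. A further group received 1e9 colony-forming units of Lac.z daily by oral gavage for 4 weeks before I/R and was killed on day 5. All 4 groups were injured, and each had 1 library. How many animals a library held, and what mice without Lac.z were given, are not stated in the sources used here, and no uninjured kidney was analysed here.

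The proximal tubule reabsorbs most of the filtrate and takes up organic ions from the blood, and it is the main site of drug metabolism in the kidney. Cytochrome P450 enzymes add an oxygen atom to a substrate, with electrons passed on by the reductase Por. Glucuronosyltransferases then join glucuronic acid to such products, and to steroids, so that they can be excreted. The tubule is divided into segments S1, S2 and S3 along its length, and many of these enzymes differ between segments and, in the mouse, between the sexes.

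Values for the 4 libraries are given in the order day 5, day 5 Lac.z, day 14, day 28. The libraries held 8424, 8168, 11203 and 15583 barcodes, with medians of 4864 to 8101.5 unique molecular identifiers (UMIs) per barcode. After filtering, 6608, 6583, 8714 and 12376 cells remained. Clusters with proximal tubule markers held 1392, 3791, 5698 and 9342 cells. Each was called S1-like, S2-like or S3-like from segment transporters, and the 8 genes had been left out of the clustering. Slc5a2, the S1 glucose transporter, was at 670 and 748 UMIs per 1000000 (CPM) in the 2 S1-like clusters, and Slc7a13, an S3 amino acid transporter, was at 997 CPM in the S3-like cluster. Both S1-like clusters together held 432, 1233, 1500 and 2568 cells, and the 6 S2-like clusters held 750, 2223, 3249 and 5128. The S3-like cluster held 8, 58, 451 and 315 cells, which was 0.575%, 1.53%, 7.92% and 3.37% of proximal tubule-like cells. With 8 cells, S3-like cells of the day 5 library were not compared. Another 2 clusters lay between S1 and S2 and were counted only in the whole. Pairs of libraries shared 15 to 43 barcodes before filtering.

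Levels are UMIs summed over the cells of a class in 1 library and scaled to CPM. With 1 library per group there was no spread between replicates, so no test was run. A difference was called higher or lower at a CPM ratio of at least 1.5, among genes with at least 50 UMIs over the 2 sums. Intervals are exact 95% intervals that cover counting error only. RNA set free from broken cells reaches every droplet, so the level in macrophage-like cells, which should not make these enzymes, serves as a background. It is drawn for each gene, but its CPM is printed only for Cyp2e1, Cyp4b1, Cyp2a4 and, in part, Ugt2b38. Low levels of the others, such as Ugt2b37 in S1-like and S3-like cells, are not set against it in the text.

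On GRCm38, Cyp2e1 is at chr7:140763739-140774987 on the plus strand and Cyp2a4 at chr7:26307169-26315088 on the plus strand. Cyp4b1 is at chr4:115624725-115647723 and Cyp2j5 at chr4:96628773-96664154, both on the minus strand, as are Cyp2d26 at chr15:82790101-82794294 and Cyp7b1 at chr3:18071950-18243338. Ugt2b37 at chr5:87240493-87254804 and Ugt2b38 at chr5:87409942-87424203 lie in 1 cluster of glucuronosyltransferase genes on the minus strand. The 250 bases upstream of the RefSeq start (table build GRCm38.p6) were matched for 7 of the 8 genes, all but Cyp7b1. Ugt2b37 and Ugt2b38 are shown because their upstream windows are near copies while their levels in S1-like cells were not alike, and Cyp2e1 is shown as a P450 gene that, like them, was lower in S3-like than in S2-like cells. Capitals mark matches to TTAATNATT, the core of the palindrome bound by HNF1 factors, in the Ugt2b windows, and the TATA box TATAAA in Cyp2e1.
Ugt2b37, chr5:87254789-87255038, minus strand: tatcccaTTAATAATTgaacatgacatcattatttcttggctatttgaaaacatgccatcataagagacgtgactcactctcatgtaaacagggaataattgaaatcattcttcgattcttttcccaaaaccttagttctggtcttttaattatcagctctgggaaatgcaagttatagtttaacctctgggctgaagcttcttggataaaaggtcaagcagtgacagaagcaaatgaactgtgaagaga
Ugt2b38, chr5:87424204-87424453, minus strand: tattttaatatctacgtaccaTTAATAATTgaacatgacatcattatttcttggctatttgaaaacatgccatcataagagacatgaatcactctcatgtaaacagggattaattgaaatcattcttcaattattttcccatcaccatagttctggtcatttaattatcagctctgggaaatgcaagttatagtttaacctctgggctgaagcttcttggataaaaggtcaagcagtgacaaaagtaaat
Cyp2e1, chr7:140763569-140763818, plus strand: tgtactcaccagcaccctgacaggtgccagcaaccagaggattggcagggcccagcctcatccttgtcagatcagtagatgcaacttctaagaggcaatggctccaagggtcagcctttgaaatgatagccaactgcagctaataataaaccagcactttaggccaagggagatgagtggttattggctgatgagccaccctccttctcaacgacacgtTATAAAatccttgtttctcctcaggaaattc

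The Ugt2b37 and Ugt2b38 windows were identical at 225 of 264 aligned columns (85.2%), with a longest shared run of 82 bases. The other 20 pairs of windows were 47.4% to 53.1% identical. TTAATNATT, searched on both strands, was found in these 2 windows and in none of the other 5, and it was present in 396 of 27025 RefSeq windows of the same length (1.47%). TATAAA was found in the Cyp2e1, Cyp2d26, Cyp2j5 and Cyp2a4 windows and in 3504 of all windows (13.0%). GTTAAT, which can overlap the HNF1 core, was found in the Cyp2d26 and Cyp2a4 windows (6.52% of all windows), and AGAACA, a half-site of steroid receptors, in the Cyp4b1 and Cyp2d26 windows (16.2%). CAAAGGTCA and CAAAGTCCA, forms of the HNF4 element, were found in none of the 7 windows (0.407% and 0.381% of all windows). A match describes these letters and is not a measured binding site.

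The 8 genes fell into different segment patterns, and these patterns recurred in each library in which they could be measured. Cyp2e1, Cyp4b1 and Ugt2b37 were highest in S2-like cells, Cyp2d26 was higher in S1-like than in S2-like cells, and Cyp2a4 and Cyp7b1 were highest in S3-like cells. Cyp2j5 stepped up by less than 1.5-fold from each segment to the next, and Ugt2b38 was high in S1-like and S2-like cells but near the background in S3-like cells. Between S2-like and S1-like cells, 7 genes could be measured, and 4 were called higher and 1 lower in each of the day 5, day 5 Lac.z and day 14 libraries. Over all measured genes 6.16%, 5.57% and 7.98% were called higher and 12.2%, 14.3% and 19.0% lower in these libraries. At day 28, 5 were called higher and 1 lower, against 6.90% and 24.9%. From S2-like to S3-like cells all 8 could be measured, and 2 were called higher in each of the Lac.z, day 14 and day 28 libraries, against 11.3%, 11.0% and 9.14% of all genes. In these libraries 4, 5 and 5 were called lower, against 38.7%, 21.9% and 22.9%.

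**Figure D1:**
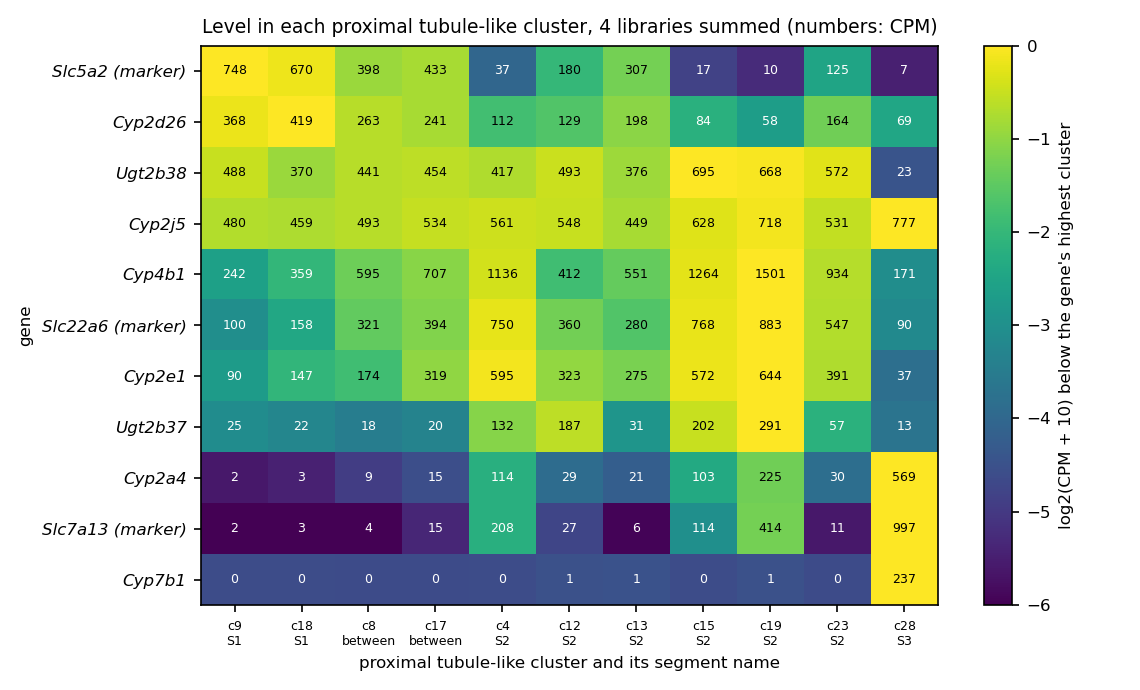
Levels of the 8 genes and of 3 segment marker transporters (rows) in the 11 proximal tubule-like clusters (columns, with segment name), UMIs of 4 libraries summed. Numbers are CPM and colour is log2(CPM + 10) below the gene's highest cluster. Cyp2d26 follows the S1 marker Slc5a2, Cyp2e1, Cyp4b1 and Ugt2b37 are highest in the S2-like cluster 19, and Cyp7b1 is at 237 CPM in the S3-like cluster and at most 1 CPM elsewhere.

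Cyp2e1 encodes the P450 that oxidises ethanol and acetaminophen. In S2-like cells it stood at 473, 434, 515 and 638 CPM, and in S1-like cells at 218, 143, 122 and 105 CPM. The level in S2-like cells was therefore 2.17-fold (2.02 to 2.34), 3.04-fold (2.88 to 3.20), 4.22-fold (4.01 to 4.44) and 6.10-fold (5.82 to 6.38) that in S1-like cells. The difference between the segments was widest at day 28 and narrowest in the day 5 library without Lac.z. S3-like cells held 58.0, 15.3 and 63.5 CPM in the Lac.z, day 14 and day 28 libraries, which was 7.47-fold, 33.7-fold and 10.0-fold lower than in S2-like cells. Macrophage-like cells held 1.94, 5.61, 11.8 and 33.0 CPM in the 4 libraries, so the day 14 level in S3-like cells was close to that background.

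Cyp4b1 encodes a P450 of fatty acids that also activates furan toxins and is induced by androgens in mouse kidney. It stood at 739, 601, 1065 and 1484 CPM in S2-like cells and at 317, 275, 244 and 402 CPM in S1-like cells. S2-like cells thus had 2.33-fold, 2.18-fold, 4.37-fold and 3.69-fold the S1-like level. S3-like cells held 194, 126 and 232 CPM, which was 3.1-fold, 8.45-fold and 6.40-fold below S2-like cells. Outside the tubule, endothelial-like cells held 89.4, 98.6, 92.9 and 151 CPM of Cyp4b1, well above the 2.91, 10.1, 21.8 and 64.3 CPM of macrophage-like cells. The other 7 genes reached at most 36.7 CPM in endothelial-like cells. Of the distinct 90-base stretches of Cyp4b1 reference transcripts, 5.18% also occurred in another gene, 53 of these 100 in the pseudogene Cyp4b1-ps1.

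Cyp2d26, a member of the mouse Cyp2d family, was the gene of the 8 that was highest at the start of the tubule. Its levels in S1-like cells were 253, 353, 494 and 399 CPM, and in S2-like cells 58.1, 153, 110 and 93.8 CPM. It was 4.36-fold (3.85 to 4.95), 2.31-fold (2.20 to 2.42), 4.49-fold (4.30 to 4.70) and 4.25-fold (4.07 to 4.43) lower in S2-like cells. The Lac.z library had the smallest step and the highest S2-like level. In S3-like cells it stood at 201, 69.2 and 38.4 CPM, so the Lac.z library, with 111 UMIs in 58 cells, stood above the later libraries there as well.

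Cyp2j5 encodes an arachidonic acid epoxygenase that is under androgen control in mouse kidney. Its level was 416, 391, 508 and 492 CPM in S1-like cells, 447, 484, 650 and 615 CPM in S2-like cells, and 684, 788 and 787 CPM in the measurable S3-like libraries. Steps between neighbouring segments were 1.07-fold to 1.41-fold and none was called, but from S1-like to S3-like cells the level was 1.75-fold (1.57 to 1.94), 1.55-fold (1.48 to 1.62) and 1.60-fold (1.52 to 1.68) higher, past 1.5-fold in all 3 libraries. It was detected in 80.2%, 87.8%, 87.5% and 81.8% of proximal tubule-like cells. No 90-base stretch of its reference transcripts occurred in another gene.

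Cyp2a4 and Cyp7b1 act on steroids. Cyp2a4, a steroid hydroxylase, was at 3.31, 1.70, 2.84 and 3.22 CPM in S1-like cells, beside macrophage-like values of 0.353, 0.859, 2.35 and 6.32 CPM. The S1-like level was close to that background at day 14, at 2.84 against 2.35 CPM, and below it at day 28. In S2-like cells it stood at 85.8, 65.0, 90.5 and 143 CPM, and in S3-like cells at 441, 449 and 783 CPM. The step from S2-like to S3-like cells was 6.78-fold (5.88 to 7.79), 4.96-fold (4.65 to 5.30) and 5.46-fold (5.17 to 5.77). Of the distinct 90-base stretches of its reference transcripts, 14.7% also occurred in another gene, nearly all in Cyp2a5. How reads from such stretches were counted was not tested.

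Cyp7b1 encodes the hydroxylase that inactivates oxysterols. It was close to absent from S1-like and S2-like cells, with at most 0.236 CPM in S1-like and 0.383 CPM in S2-like cells. In S2-like cells of day 5 it had 0 UMIs, which allows a level of up to 0.528 CPM. In S3-like cells it stood at 198, 158 and 363 CPM, which was 907-fold (344 to 3387), 412-fold (222 to 864) and 1278-fold (670 to 2805) above S2-like cells. In the Lac.z library 71 of its 109 S3-like UMIs came from 3 cells. A Cyp7b1 UMI was found in 37.9%, 38.6% and 47.3% of S3-like cells, against 0.0622%, 0.358% and 0.207% of macrophage-like cells, whose median depth was the greater in each library. Collecting duct principal-like cells, measurable at days 14 and 28 only, held 52.2 and 83.2 CPM, and fibroblast-like or mural-like cells held 18.8, 17.3 and 21.1 CPM at days 5, 14 and 28.

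The 2 glucuronosyltransferases separated in S1-like cells. Ugt2b38 stood at 460, 360, 454 and 396 CPM in S1-like cells and 523, 341, 539 and 618 CPM in S2-like cells, with steps of 1.14-fold, 0.948-fold, 1.19-fold and 1.56-fold. Ugt2b37 stood at 38.3, 14.2, 35.7 and 15.4 CPM in S1-like cells and 122, 71.0, 228 and 158 CPM in S2-like cells, with steps of 3.19-fold (2.68 to 3.80), 4.98-fold (4.24 to 5.89), 6.39-fold (5.83 to 7.03) and 10.2-fold (9.10 to 11.5). Both were low in S3-like cells. Ugt2b37 held 18.1, 8.38 and 19.2 CPM there. Ugt2b38 had 1 UMI in the Lac.z library, 188-fold (33.8 to 7433) below S2-like cells, and stood at 12.3 and 41.8 CPM at days 14 and 28, close to the 15.8 and 32.7 CPM of macrophage-like cells. Of the distinct 90-base stretches of Ugt2b38 reference transcripts, 25.2% also occurred in another gene, all in Ugt2b5. For Ugt2b37 the share was 2.16%.

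**Figure D2:**
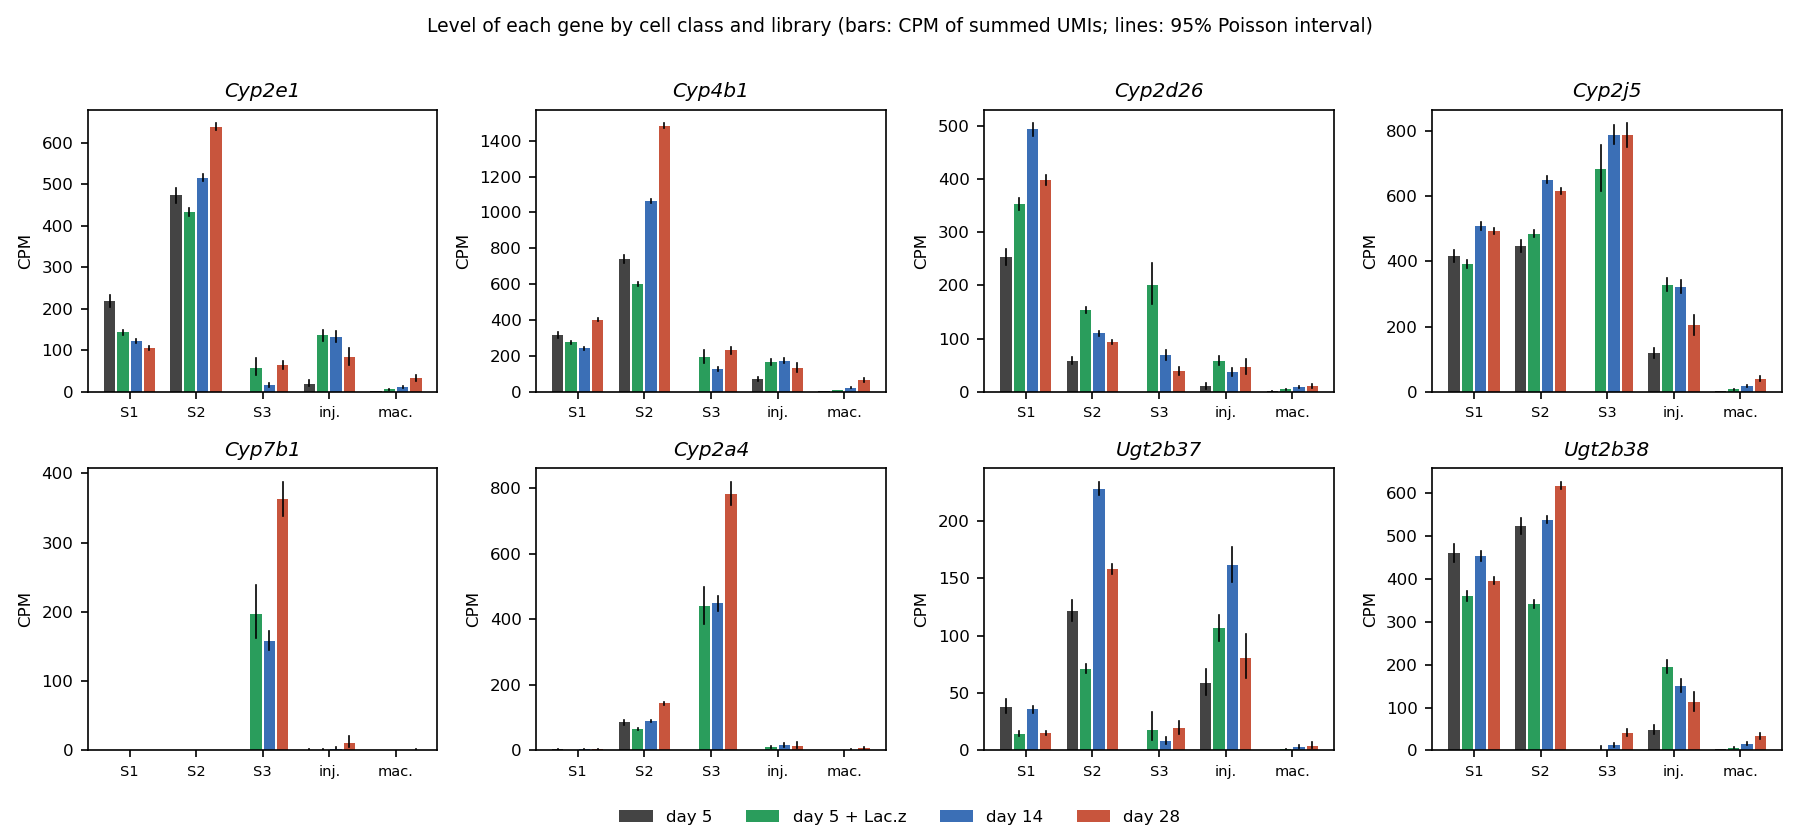
Level of each gene (CPM, y axes with separate scales) in S1-like, S2-like and S3-like cells, injured tubule-like cells (inj.) and macrophage-like cells (mac.), 1 bar per library, with exact 95% Poisson intervals as lines. S3-like cells of day 5 are not drawn because that library had 8 of them. Cyp2d26 bars are tallest in S1-like cells, Cyp2e1 and Cyp4b1 bars in S2-like cells, and Cyp7b1 and Cyp2a4 bars in S3-like cells. Ugt2b37 bars are tallest in S2-like cells except in the Lac.z library, where injured tubule-like cells stand higher.

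Detection was set against macrophage-like cells and was not compared between segments. The share of cells with a UMI was higher in proximal tubule-like than in macrophage-like cells for all 32 pairs of gene and library, and also after each cell had been thinned to 2000 UMIs. In CPM, 21 of 28 comparisons of gene and library between S2-like and S1-like cells were past 1.5-fold. Whether each single call was kept under the alternative clusterings and scalings is not given here.

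Other genes of drug metabolism were placed beside these at day 28, and a gene was counted for a segment when its level there was at least 1.5-fold that of the next segment. Of the 8 genes, 1 was highest in S1-like cells, 4 in S2-like and 2 in S3-like cells, against 21.3%, 1.35% and 6.73% of all 11183 measured genes. Of 23 other P450 genes measured, 6, 5 and 7 were highest in S1-like, S2-like and S3-like cells. On a list of other Ugt genes with Ugp2, Ugdh and Slc35d1, 11 were measured and the counts were 2, 4 and 2. Of 33 other phase I and II enzymes the counts were 2, 5 and 4. Electron donor and heme genes, listed together, differed less, with 1, 0 and 0 of 11 past the fold. Por stood at 124, 172 and 222 CPM along the segments. Near relatives took the same or different places. Cyp2a5, the copy of Cyp2a4, stood at 23.8, 153 and 14.9 CPM in S1-like, S2-like and S3-like cells, and the Cyp2d gene Cyp2d9 at 2.10, 47.5 and 349 CPM, the opposite order to Cyp2d26. Cyp2d22, at 23.2, 12 and 3.41 CPM, and Cyp2d12, at 78.6, 66.7 and 8.10 CPM, ran in the same order as Cyp2d26. Ugt2b34 stood at 62.0, 2.90 and 0 CPM. Receptors that carry hormone signals were among the 5 of 21 regulators highest in S3-like cells. The prolactin receptor Prlr was at 16.1, 9.02 and 174 CPM and the growth hormone receptor Ghr at 136, 311 and 1013 CPM.

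**Figure D3:**
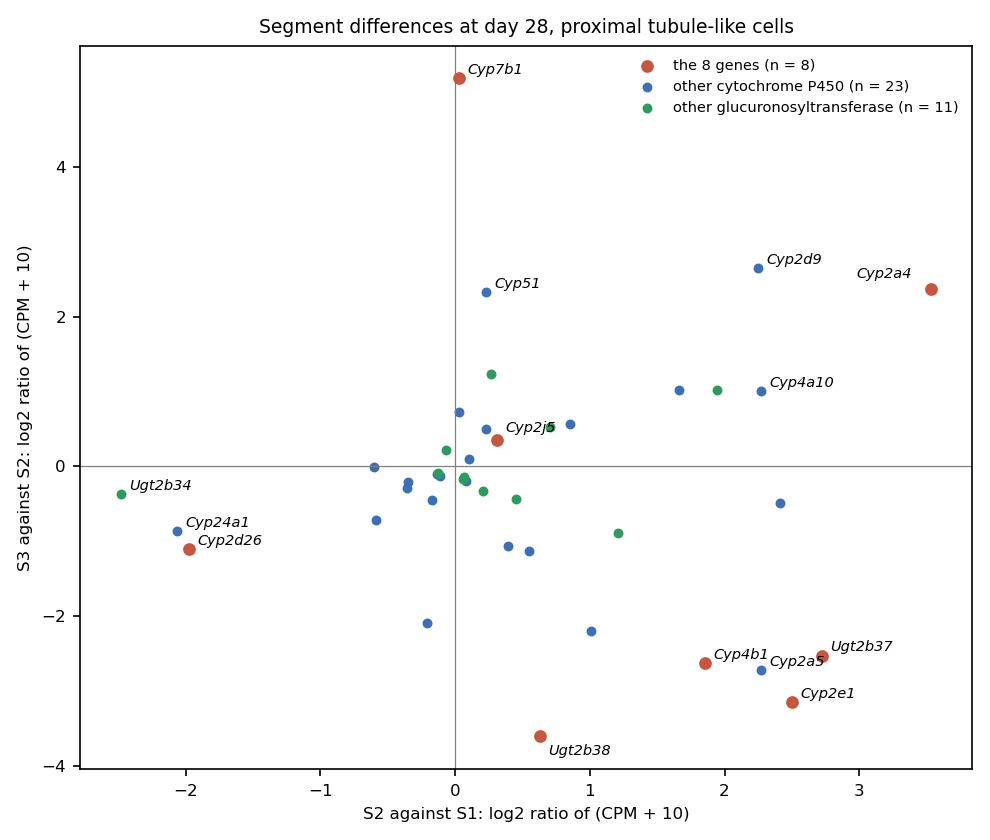
Segment differences at day 28 for the 8 genes and for the measured genes of the other P450 and Ugt lists. The x axis is the log2 ratio of (CPM + 10) in S2-like over S1-like cells and the y axis that in S3-like over S2-like cells, with 1 point per gene. Cyp2e1, Cyp4b1, Ugt2b37 and Cyp2a5 lie at the lower right, Cyp2a4 and Cyp2d9 at the upper right, Cyp2d26, Cyp24a1 and Ugt2b34 at the left, and Cyp7b1 at the top.

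The day 5 library from mice given Lac.z was compared with the day 5 library without it, which asks whether the probiotic changed the injured kidney. Cyp2d26 was higher with Lac.z in S2-like cells, Ugt2b37 was lower in both S1-like and S2-like cells, and Ugt2b38 in S2-like and Cyp2e1 in S1-like cells were lower by just over 1.5-fold. In proximal tubule-like cells taken whole, 2 of the 8 genes were called higher and 1 lower, against 6.40% and 2.35% of 11177 measured genes. The median log2 ratio of the 8 was -0.10, against 0.06 for all genes. The 2 higher genes were Cyp2d26, at 230 against 141 CPM, and Cyp7b1, at 3.48 against 0.699 CPM. The Cyp7b1 values rest on 113 and 8 UMIs, and the share of S3-like cells was 1.53% against 0.575%.

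Cyp2d26 in S2-like cells was 2.63-fold (2.35 to 2.96) higher with Lac.z, at 153 against 58.1 CPM. All 5 S2-like clusters with enough cells in both libraries had a higher level with Lac.z, by 2.41-fold to 3.48-fold. The sixth, a cluster of 197 cells, had 140 of them in the Lac.z library and was too small at day 5 to be compared. Its S1 marker Slc5a2, at 307 CPM, stood slightly above the S2 marker Slc22a6, at 280 CPM. In S1-like cells Cyp2d26 was 1.39-fold (1.30 to 1.49) higher and not called. The summed CPM of S1 markers in S2-like cells was 504 with Lac.z and 388 without, with 1 of 6 markers past the fold, and its part in the result was not tested.

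Both glucuronosyltransferases were lower with Lac.z. In S2-like cells Ugt2b37 was 1.72-fold lower, at 71.0 against 122 CPM, and Ugt2b38 was 1.53-fold lower, at 341 against 523 CPM. In S1-like cells Ugt2b37 was 2.69-fold lower, at 14.2 against 38.3 CPM, and Ugt2b38 was 1.28-fold lower and not called. The Ugt2b37 ratio in S1-like cells was lost (log2 ratio -0.05) when each library was clustered on its own. Cyp2e1 in S1-like cells was 1.53-fold lower, at 143 against 218 CPM, and fell short of the fold under 5 of 9 alternatives. In all, 1 of 7 genes in S2-like cells was called higher and 2 lower, against 7.55% and 2.48% of all genes, and 0 of 6 in S1-like cells higher and 2 lower, against 9.15% and 1.64%. Cyp4b1, Cyp2j5 and, in S2-like cells, Cyp2a4 were within 1.5-fold in both segments. The macrophage marker sum was lower with Lac.z, at 347 against 551 CPM in S2-like and 565 against 786 CPM in S1-like cells, and the cluster with the deepest cells held 41.4% against 25.7% of S2-like and 66.8% against 47.2% of S1-like cells. The part of these in the results was not tested.

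**Figure D4:**
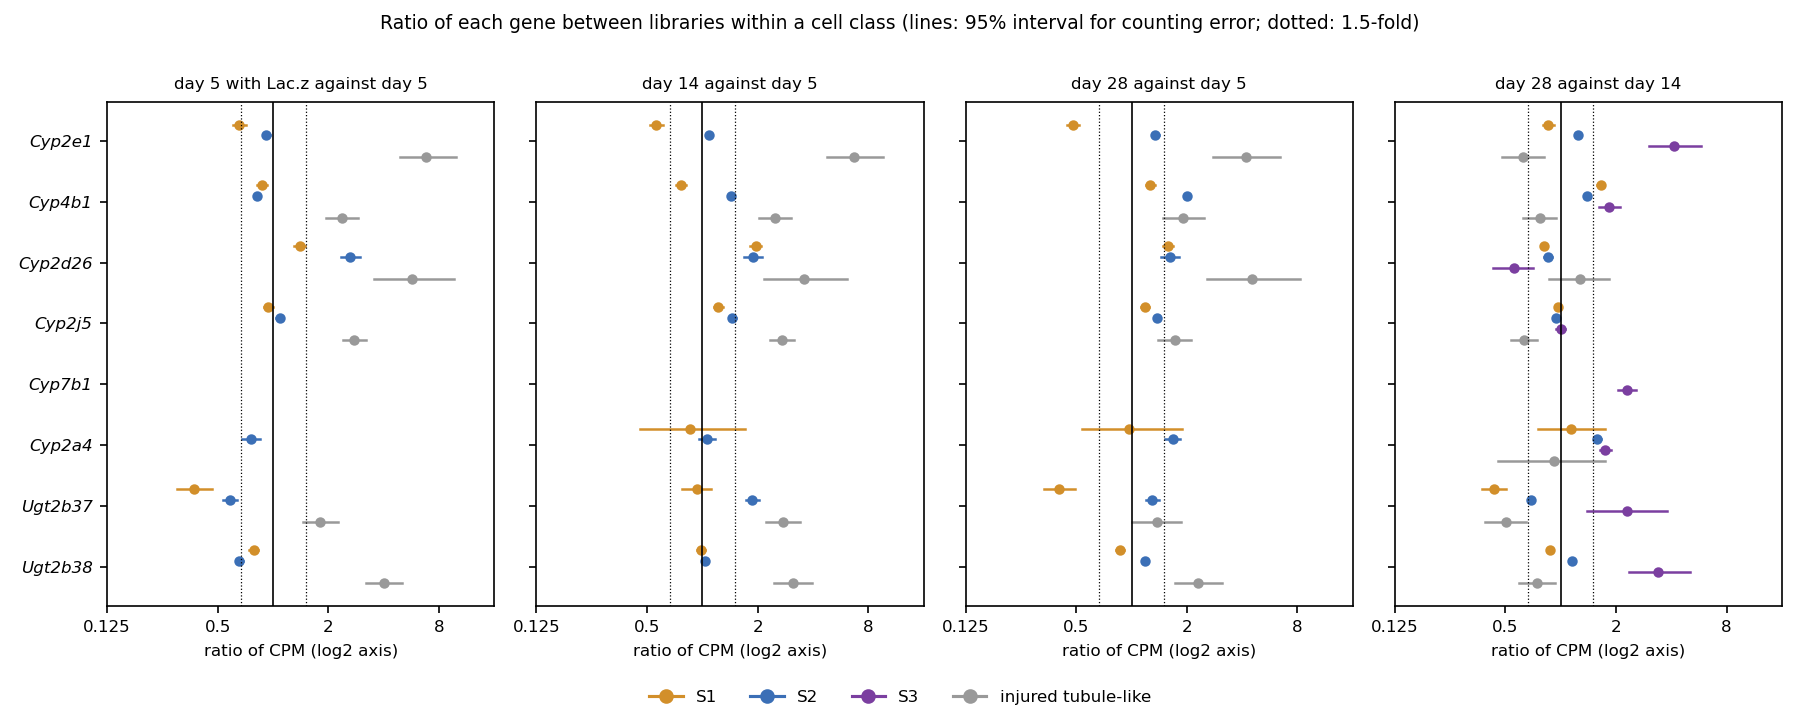
Ratio of each gene's CPM between 2 libraries within a cell class (x axis, log2 scale) for the 4 comparisons (panels). Points are ratios, lines exact 95% intervals for counting error, the solid line is a ratio of 1 and the dotted lines are 1.5-fold in either direction; genes with under 50 UMIs or with a library at 0 are not drawn. Cyp2d26 lies to the right in each comparison with day 5, and in injured tubule-like cells all points lie to the right of 1 in those 3 panels.

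The course after I/R was read from days 5, 14 and 28 without Lac.z. Cyp2d26 was higher at both later times in S1-like and S2-like cells, and in S2-like cells Cyp4b1 was highest at day 28 and Ugt2b37 at day 14. Cyp2e1 moved apart between segments, lower after day 5 in S1-like cells and within 1.5-fold in S2-like cells. In the whole proximal tubule-like class, 4 of 8 genes were called higher at day 14 than at day 5 and 0 lower, against 9.70% and 5.46% of all genes. At day 28, 3 were higher than at day 5 and 0 lower, against 7.64% and 6.78%, and 0 were higher than at day 14 and 1 lower, against 2.33% and 6.09%. The day 14 and day 28 comparisons share the day 5 library. Both day 5 matrices named software version 3.0.2 and the later ones 3.1.0, so version and time cannot be told apart.

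The make-up of the class differed between times, and its part in these counts was not tested. Cyp7b1 in the whole class was at 0.699 CPM at day 5, 11.9 at day 14 and 14.6 at day 28, while S3-like cells were 0.575%, 7.92% and 3.37% of it. Cyp2a4 was at 45.7, 86.3 and 111 CPM in the whole class. Within S2-like cells Cyp2a4 was at 85.8, 90.5 and 143 CPM, a ratio of 1.05 at day 14 against day 5. With S1-like and S2-like cells weighted equally and other cells left out, 2 genes were called at day 14 against day 5 in place of 4, Cyp2a4 being no longer past the fold and Cyp7b1 not measurable. At day 28 against day 5, 3 were called in both, Cyp4b1 and Cyp2a4 again and Cyp2d26 (1.58-fold) beside them in place of the unmeasured Cyp7b1.

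Within S2-like cells Cyp4b1 was at 739, 1065 and 1484 CPM at days 5, 14 and 28, which was 2.01-fold (1.95 to 2.07) higher at day 28 than at day 5. It was past the fold in 6 of the 9 proximal tubule-like clusters that could be compared, with ratios of 0.898 to 2.27. Cyp2d26 in S2-like cells was 1.89-fold (1.69 to 2.12) higher at day 14 and 1.61-fold (1.44 to 1.81) at day 28 than at day 5. Ugt2b37 was 1.87-fold (1.73 to 2.03) higher at day 14, and its day 28 level of 158 CPM lay between day 5 and day 14. Cyp2a4 was 1.67-fold (1.52 to 1.84) higher at day 28 than at day 5 and 1.58-fold (1.51 to 1.67) higher than at day 14, and the first fell short of the fold under 5 of 10 alternatives and the second under 3. In all, 2 of 7 were higher at day 14 and 3 of 7 at day 28 than at day 5 and 0 lower, against 10.2% and 8.21% of all genes higher and 5.49% and 7.56% lower. From day 14 to day 28, 1 of 7 was higher and 0 lower, against 2.19% and 6.65%.

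The S2-like class itself differed between times. The summed CPM of injury markers in it was 5022 at day 5, 2461 at day 14 and 480 at day 28, and that of S2 markers 1446, 2070 and 2193. A cluster with Havcr1, the injury marker KIM-1, held 22.3%, 15.2% and 1.58% of S2-like cells at days 5, 14 and 28. Without that cluster the log2 ratio of day 28 to day 5 was 0.88 for Cyp4b1 and 0.74 for Cyp2d26, and that of Cyp2a4 between day 28 and day 14 was 0.56, under the fold.

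Within S1-like cells Cyp2e1 was lower than at day 5 by 1.78-fold on day 14 and by 2.08-fold on day 28. In the S1-like cluster with 918 cells at day 14, that day's ratio was 0.74 (0.63 to 0.88) and was not called. The cluster with the deepest cells held 47.2% of S1-like cells at day 5 and 38.8% at day 14, and its part was not tested. Cyp2d26 was 1.95-fold (1.83 to 2.08) higher at day 14 and 1.57-fold (1.48 to 1.68) higher at day 28. Ugt2b37 was within 1.5-fold at day 14 and 2.48-fold lower at day 28 than at day 5, and 2.31-fold lower at day 28 than at day 14. The call at day 28 against day 5 was kept under 8 of 9 alternatives, with 1.35-fold as the smallest value. Of 8 proximal tubule-like clusters compared between these libraries, 4 were higher and 1 lower for Ugt2b37, with ratios of 0.312 to 2.69. Cyp4b1 was 1.65-fold (1.58 to 1.72) higher at day 28 than at day 14. In all, 1 of 7 was higher and 1 lower at day 14 against day 5 (11.4% and 3.64% of all genes), 1 higher and 2 lower at day 28 against day 5 (13.1% and 4.33%), and 1 higher and 1 lower at day 28 against day 14 (2.37% and 2.69%).

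S3-like cells could be followed from day 14 to day 28. Of the 8 genes, 6 were called higher and 1 lower at day 28, against 3.80% and 8.89% of 7110 measured genes. The S3-like genes Cyp7b1 and Cyp2a4 were 2.30-fold (2.06 to 2.57) and 1.74-fold (1.63 to 1.87) higher, at 363 against 158 and 783 against 449 CPM. Cyp2d26 was 1.80-fold lower, at 38.4 against 69.2 CPM, and Cyp2j5 had a ratio of 0.998 (0.940 to 1.06). Genes of the neighbouring segment were also higher. Cyp2e1 was 4.16-fold higher on 51 and 149 UMIs, Cyp4b1 1.84-fold, Ugt2b38 3.40-fold on 41 and 98 UMIs, and Ugt2b37 2.29-fold on 28 and 45 UMIs. These 4 ratios moved with the processing. With segments taken from each cell's own markers Cyp2e1 was 1.63-fold and Ugt2b38 1.67-fold higher, with a 25% mitochondrial limit Cyp4b1 was 1.16-fold higher and no longer called, and Ugt2b37 kept its call under 4 of 8 alternatives. Macrophage-like levels were higher at day 28 too, at 33.0 against 11.8 CPM for Cyp2e1, 64.3 against 21.8 for Cyp4b1 and 32.7 against 15.8 for Ugt2b38. In S3-like cells 3 of 5 S2 markers were higher at day 28 (median log2 ratio 1.11) and all 4 measured injury markers were lower (-2.89). The part of these in the results was not tested.

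A cluster of injured tubule-like cells, with Havcr1, Krt8 and Vcam1 among its markers, held 89, 204, 163 and 78 cells in the 4 libraries, with medians of 18627, 12811.5, 15934 and 9982.5 UMIs per cell. Of 7 genes that could be measured against S2-like cells, 7, 5, 6 and 7 were lower in these cells and 0 higher, against 17.5%, 10.9%, 11.1% and 14.9% of all genes lower and 44.2%, 32.4%, 44.0% and 47.5% higher. The enzymes stood at their lowest in the day 5 library without Lac.z. The macrophage-like background of Cyp2e1 and Cyp4b1, given above, was also lowest in that library and highest at day 28. Its part in these levels was not tested. Cyp2e1 was at 19.8, 135, 133 and 83.1 CPM, and Cyp2j5 at 118, 327, 322 and 203 CPM. Cyp2d26 was at 10.2, 58.1, 36.3 and 46.0 CPM, Ugt2b38 at 48.8, 195, 151 and 112 CPM, and Cyp4b1 at 69.7, 165, 173 and 134 CPM. Ugt2b37 was at 59.0, 106, 161 and 80.8 CPM. It was above its S1-like level in all 4 libraries, by 1.54-fold (1.2 to 1.98), 7.46-fold (6.18 to 9.04), 4.52-fold (3.97 to 5.15) and 5.23-fold (3.99 to 6.79), and in the Lac.z library it also stood above its S2-like level of 71.0 CPM. Cyp2a4 had 0 UMIs at day 5, which allows up to 1.61 CPM, and stood at 9.63, 15.8 and 14.6 CPM in the others.

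All 6 genes measured were called higher with Lac.z than without at day 5, from 1.80-fold (1.45 to 2.26) for Ugt2b37 to 6.83-fold (4.88 to 9.84) for Cyp2e1, against 15.9% of all genes higher and 17.8% lower. All 6 were also higher at day 14 than at day 5, against 19.2% of all genes higher and 9.89% lower, and 5 of 6 at day 28, against 19.0% and 9.89%. From day 14 to day 28, 3 of 7 were lower and 0 higher, against 8.26% and 8.81%. The calls with Lac.z and at day 14 were kept under each alternative that gave a value, 8 with Lac.z and 7 at day 14. With the libraries clustered separately, injured tubule-like cells numbered 115, 246, 0 and 0 in the 4 libraries. The calls at days 14 and 28 could therefore not be checked under that setting. Clustering at resolution 2 left 46 such cells at day 28, too few to be compared. At day 28 against day 5, Cyp2j5 kept its call under 4 of 6 alternatives, with ratios down to 1.22-fold, and Cyp4b1 and Ugt2b38 each lost theirs under 1, at 1.36-fold and 1.16-fold. At day 28 against day 14, Cyp2e1 kept its call under 3 of 6. The enzymes did not stand alone in this. All 14 proximal tubule markers were higher in these cells with Lac.z and at day 14 than at day 5, with median log2 ratios of 2.05 and 1.95, and their summed CPM was 1649, 6705, 6465 and 5137 in the 4 libraries. The injury marker sum was 28959, 24146, 21777 and 12175 CPM. Whether the cells, their mixture or the background from free RNA differed was not tested.

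**Figure D5:**
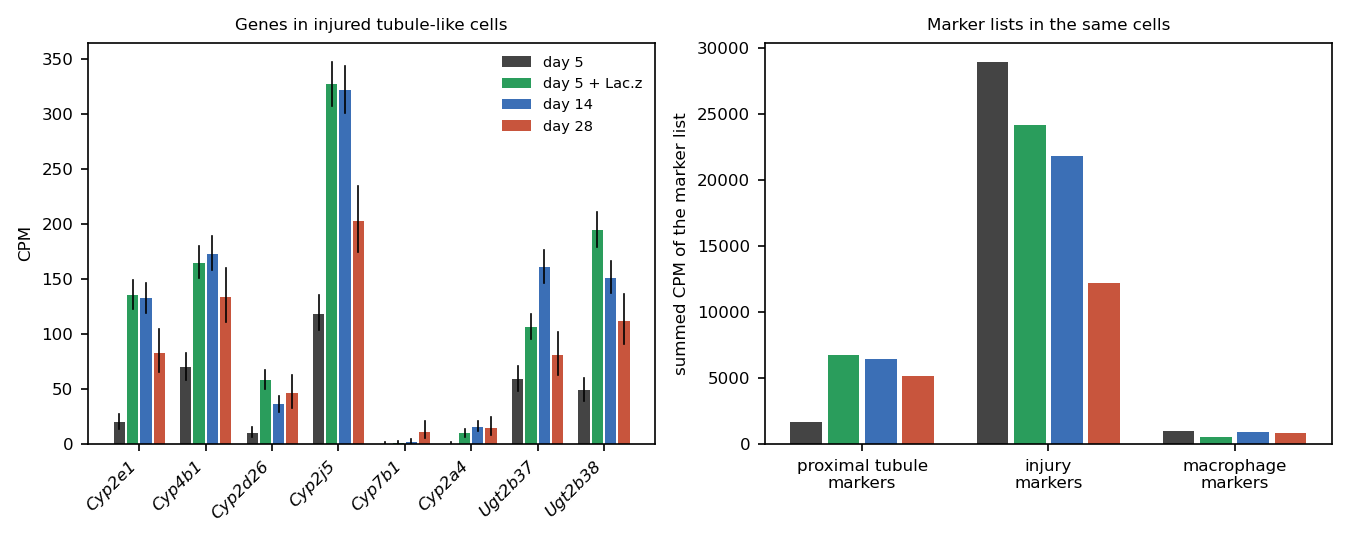
Left, level of each gene (CPM) in injured tubule-like cells of the 4 libraries, with exact 95% Poisson intervals as lines. Right, summed CPM of 3 marker lists in the same cells. The day 5 library without Lac.z has the lowest bar for each of the 6 genes measured in every comparison and for the proximal tubule markers (1649 CPM), and the tallest bar for injury markers (28959 CPM).

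Other genes of the same pathways also differed in proximal tubule-like cells. Over all measured genes, 6.40% were called higher and 2.35% lower with Lac.z, 9.70% and 5.46% at day 14 and 7.64% and 6.78% at day 28, each against day 5, and 2.33% and 6.09% from day 14 to day 28. Of the other P450 genes measured, 7 of 23 were called higher and 2 lower with Lac.z, 10 of 26 higher and 4 lower at day 14, and 7 of 24 higher and 3 lower at day 28, each against day 5, and 1 of 27 higher and 6 lower from day 14 to day 28. Cyp4a14, a fatty acid hydroxylase, had the highest ratio with Lac.z, at 254 against 49.7 CPM, and stood at 205 and 134 CPM at days 14 and 28. Cyp2d9 was at 11.9 CPM at day 5, 43.3 at day 14 and 40.4 at day 28, and Cyp4a12a was lower in each of the others than at day 5, at 28.3, 17.8, 7.40 and 10.3 CPM in the 4 libraries. Of the list of other Ugt genes, Ugp2, Ugdh and Slc35d1, 1 of 12 was higher and 0 lower with Lac.z (Ugt1a2, on 167 and 11 UMIs). Against day 5, 2 of 11 were higher and 0 lower at day 14, and 2 of 12 higher and 1 lower at day 28. The 2 higher genes were Ugt3a2 and Ugt8a at both times, and no Ugt1a or Ugt2b gene on this list was. Ugt3a2 stood at 390 against 190 CPM at day 14. Por, the electron donor, was 1.73-fold (1.62 to 1.85) higher at day 14 and 1.69-fold (1.59 to 1.81) at day 28 than at day 5. With Lac.z, 0 of the 11 electron donor and heme genes were past the fold in either direction. Of these 11 genes, 1 was higher at day 14 (Por), 2 at day 28 (Por and the heme oxygenase gene Hmox1) and 0 lower at both. Of the other phase I and II enzymes, 3 of 34 were higher and 1 lower with Lac.z, 10 of 34 higher and 0 lower at day 14, with Ephx1 at 16.7 against 3.06 CPM, and 4 of 33 higher and 3 lower at day 28. From day 14 to day 28, 9 of 35 were lower and 0 higher, and Ephx1 was at 2.07 CPM. The regulators gave 3 of 21 higher and 1 lower with Lac.z, 5 higher and 0 lower at day 14 and 2 higher and 0 lower at day 28, Prlr being at 12.1, 40.2, 49.8 and 17.8 CPM in the 4 libraries.

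Likeness of pattern was described over 31 units of tubule class and library, with Pearson's r of log2(CPM + 1) among 11783 genes. The units share libraries and differ in depth, and proximal tubule classes set most of the range, so no p is given. Slc13a3, Slc22a6, Slc7a13, Pdzk1 and Cubn, named below, were among the markers used to name these classes. Likeness to them is therefore partly set by that naming. Cyp2e1 and Cyp4b1 were each among the closest 3 genes to the other (r = 0.970), together with the S2 transporters Slc13a3 and Slc22a6 (0.948 to 0.977). Cyp2a4 was closest to the S3 marker Slc7a13 (0.953), followed by Eci2 (0.942) and Acsm3 (0.939). Cyp7b1 was closest to the organic anion transporter gene Slco4c1 (0.958), then Bcat1 (0.857) and Tbc1d16 (0.844). Cyp2j5 followed Pdzk1 (0.983), Abcc2 (0.982) and Cubn (0.981), and Cyp2d26 followed Cubn (0.946), Gpx3 (0.943) and Rpusd3 (0.942). Ugt2b38 followed Dleu7 (0.956), Slc51a (0.955) and Acmsd (0.953). Ugt2b37 followed Tmem252 (0.877), Cyp2j13 (0.871) and Pawr (0.870), and its r with Ugt2b38 was 0.73.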

How the data were processed

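Droplet single-cell RNA sequencing was analysed in 4 libraries, 1 per group, grouped by their labels. The deposited values are raw counts of UMIs, whole numbers with no scaling, in matrices of genes by barcodes. The genome build mm10 is named in the submitters' processing notes. No source used here names the aligner or the annotation. The 8 genes and all other lists were chosen with earlier results of these data known.

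A barcode was kept with 200 or more genes detected and no more than 50% of its UMIs from mitochondrial genes, and those with the highest Scrublet scores were removed at 0.8% per 1000 barcodes. Cells were clustered together with Leiden (scanpy 1.11.5, igraph 0.11.9, Python 3.11.15, scipy 1.17.1) on 2000 variable genes, 30 principal components and 20 neighbours at resolution 1, leaving out 160 genes of the drug metabolism lists. Clusters were called "X-like" from marker lists. The naming thresholds (a median score of at least 1, a lead of 0.75 over the next class, 0.5 for segments, and at least 3 detected markers) were chosen once the clusters were known. UMIs were summed per library and class (at least 50 cells) and scaled to UMIs per 1000000. A gene needed at least 50 UMIs over both sums and a ratio of at least 1.5 to be called. Ratios carry exact conditional binomial, levels exact Poisson and shares exact Clopper-Pearson 95% intervals. The steps were tested on simulated data.

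Named by rule were the 8 genes, for each the 3 genes with the highest Pearson r among genes with at least 200 UMIs, and from each other list those with the 2 highest and 2 lowest ratios past the fold in proximal tubule-like cells. Genes named for their day 28 segment levels and other tubule markers were chosen after their values were seen. Upstream sequences came from the RefSeq table of build GRCm38.p6. Alternatives changed the mitochondrial limit, doublet removal, resolution, the genes used for clustering, joint or separate clustering, the averaging, the denominator, the UMI minimum and the assignment of segments. Equal weighting of segments and leaving out the cluster with Havcr1 were added after seeing the data.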

Additional observations from a re-analysis of the deposited data

Results flagged for a closer look

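Ugt2b37 went in opposite directions in 2 segments from day 14 to day 28. Its log2 ratio was -1.21 in S1-like cells, on 490 and 302 UMIs, and 1.19 in S3-like cells, on 28 and 45 UMIs. The difference between the segments was not tested, since each segment had 1 library per time. The S3-like value turned negative under 2 alternatives.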

How the results depend on the processing

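Of 1041 values computed under alternatives for 120 results, 979 kept their call (higher, lower or within 1.5-fold), 29 gained the fold and 29 lost it. The other 4 changed direction with the main or the alternative value past the fold. A change of direction within 1.5-fold was counted as a kept call. Ugt2b37 in S1-like cells at day 14 against day 5 went from a log2 ratio of -0.10 to 0.81 with the libraries clustered separately and to 0.61 with the mean of each cell's CPM. Ugt2b37 in S3-like cells at day 28 against day 14 went from 1.19 to -0.64 with a 25% mitochondrial limit and to -0.37 with segments taken from each cell's own markers. The cause was not tested. With S1-like and S2-like cells weighted equally, the count of called genes went from 4 to 2 at day 14 against day 5 and from 1 to 2 at day 28 against day 14. With Lac.z against day 5, that setting called Cyp2d26 (1.62-fold higher) and Ugt2b37 (1.88-fold lower), and no longer Cyp7b1. It leaves out S3-like cells, and so Cyp7b1. Cyp2d26 in the whole class at day 28 against day 5 was 1.49-fold higher and not called. It stayed within the fold under 4 of 9 alternatives and was called higher under the rest. All 9 together gave 1.43-fold to 1.69-fold. Taken cell by cell, 12512 of 17083 cells had the segment of their cluster, and 28.0% lay near the limit between segments. No paired analysis was possible because each group had 1 library. Small numbers of cells limit the S3-like and injured tubule-like sums, of which several were under 50 UMIs, as were 3 of the 4 S1-like sums of Cyp2a4.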
